A study of Arabidopsis thaliana with 12 samples.

Results

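The FRO (ferric reductase oxidase) family of Arabidopsis thaliana comprises 8 genes, FRO1 to FRO8, which were taken by their AGI identifiers from the deposited gene table of 32678 identifiers. All 8 were present. They were measured by RNA sequencing in shoots of Col wild-type seedlings and of clf seedlings, whose mutated gene CURLY LEAF (CLF) codes for a Polycomb repressive complex 2 enzyme that methylates histone H3; the clf allele is not given in the sources used here. After 12 days on B5 medium, all seedlings were kept for 3 days on medium with sufficient or with deficient iron, under 16 h light and 8 h dark at 22 °C. This gave 4 groups of 3 libraries, wild type and clf each on both iron supplies. Nothing in the labels ties a library to a separate culture, so the p-values below measure the spread between these libraries, which may be technical.

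FRO proteins are membrane enzymes that pass electrons from NADPH inside to ferric iron or cupric copper on the other side of a membrane, because transporters take up ferrous iron and cuprous copper. FRO2 is the ferric reductase of the root surface and works beside the iron transporter IRT1. FRO4 and FRO5 are plasma membrane reductases that serve copper uptake in roots, and FRO6 is a plasma membrane reductase of leaf cells. FRO3 is a mitochondrial member, FRO8 has been placed in mitochondria, and FRO7 is a chloroplast reductase that serves iron uptake by chloroplasts in seedlings. The place of FRO1 is less settled. It was counted with the plasma membrane members, where its level per length was at most 1.27 FPKM (fragments scaled to gene length and library total).

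Total counts were 16092041 to 29400813 per library, and each of the 6 libraries on deficient iron was deeper than each of the 6 on sufficient iron. CLF stood at 13.1 to 17.1 CPM (counts scaled to TMM-adjusted library size) in wild type and 3.09 to 5.40 CPM in clf. The tissue is a shoot by its source name, title and design text, whereas another label and the extraction text name root. The 8 leaf markers summed to 51183 to 107321 CPM and the 15 root markers to 4.24 to 21.3 CPM, with no root marker at 0 in every library. Replicate 3 of iron-sufficient wild type, replicate 2 of iron-deficient wild type and replicate 3 of both clf groups stood apart from the rest. In these 4 libraries the clock gene TOC1, which peaks in the evening, was at 30.2 to 59.6 CPM, against 9.44 to 13.0 CPM in the other 8. The morning clock gene LHY was at 65.2 to 231 CPM in them and at 204 to 443 CPM in the other 8. Each member's results are given with these libraries, and without them where that moved the value or its call.

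In the TAIR10.1 annotation, 6 of the 8 genes lie in neighbouring pairs on the same strand with no gene between them. FRO2 (AT1G01580, chr1:208995-213082, plus strand) precedes FRO1 (AT1G01590, chr1:214150-217734) by 1067 bases. FRO4 (AT5G23980, chr5:8097978-8101330, minus strand) and FRO5 (AT5G23990, chr5:8105461-8108642) are 4130 bases apart. FRO6 (AT5G49730, chr5:20201037-20204595, minus strand) and FRO7 (AT5G49740, chr5:20205302-20208777) are 706 bases apart. FRO3 (AT1G23020, chr1:8149868-8153796, minus strand) and FRO8 (AT5G50160, chr5:20415764-20418847, plus strand) stand alone. The coding sequences of FRO6 and FRO7 were identical at 93.86% of 2214 aligned bases, although one protein is placed in the plasma membrane and the other in the chloroplast. FRO4 and FRO5 were identical at 92.62% of aligned bases. FRO1 was closer to FRO3 (85.59%) than to its neighbour FRO2 (73.99%). Of the runs of 50 bases in the FRO6 coding sequence, 19.3% also occur in FRO7, and FRO4 shared 5.66% with FRO5, so reads from these stretches could be split either way by the counting. No other pair shared such a run.

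The 250 bases before the annotated start of FRO6 and FRO7 are shown because the ratio between these neighbours separated the groups, as given further on. The FRO3 window is shown beside them because FRO3 had the highest level of the family in iron-deficient wild type. All are RefSeq TAIR10.1 sequence, written 5′ to 3′ on the strand of the gene, at chr5:20204596-20204845 for FRO6, chr5:20208778-20209027 for FRO7 and chr1:8153797-8154046 for FRO3, all on the minus strand. Capitals mark matches, on either strand, to the G-box CACGTG, the I-box GATAAG and the copper-response core GTAC.
FRO6: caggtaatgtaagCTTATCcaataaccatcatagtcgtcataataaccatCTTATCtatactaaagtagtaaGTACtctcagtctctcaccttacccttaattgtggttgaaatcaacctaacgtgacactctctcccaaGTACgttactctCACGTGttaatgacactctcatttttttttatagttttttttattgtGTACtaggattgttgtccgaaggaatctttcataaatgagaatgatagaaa
FRO7: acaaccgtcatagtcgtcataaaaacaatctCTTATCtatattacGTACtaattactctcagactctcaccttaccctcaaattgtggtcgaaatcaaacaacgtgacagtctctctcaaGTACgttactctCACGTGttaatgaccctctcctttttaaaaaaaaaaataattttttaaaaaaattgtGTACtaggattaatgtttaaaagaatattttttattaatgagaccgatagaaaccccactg
FRO3: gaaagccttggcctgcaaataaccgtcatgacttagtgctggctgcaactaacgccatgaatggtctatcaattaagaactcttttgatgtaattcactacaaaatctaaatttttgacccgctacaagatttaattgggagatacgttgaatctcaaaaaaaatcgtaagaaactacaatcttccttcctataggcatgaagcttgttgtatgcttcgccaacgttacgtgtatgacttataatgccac
The FRO6 and FRO7 windows were identical at 85.02% of 227 aligned bases, and their longest shared run had 29 bases and held the G-box and a GTAC.
Shared run: caaGTACgttactctCACGTGttaatgac
The other 27 pairs of windows in the family were identical at 52.9% to 65.3% of aligned bases and shared no run over 13 bases. The G-box lies 98 to 93 bases before the start of FRO6 and 118 to 113 bases before that of FRO7. No other window of the family held it, and 6.49% of 27443 protein-coding promoters of this length did. The I-box occurred 2 times before FRO6 and once each before FRO7 and FRO8, and 12.3% of all these promoters hold it. GTAC occurred 3 times before FRO6, 3 times before FRO7 and once before FRO2, and 34.3% of all promoters hold it. The FRO3 window held none of these motifs. No match to one of these motifs overlapped a match to another, and a match describes letters only.

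In wild type, FRO6 had the highest level of the family on sufficient iron, at 107.5 ± 37.3 FPKM (SD, n = 3). FRO7 followed at 17.4 ± 4.65 FPKM, FRO3 at 8.61 ± 0.581 FPKM and FRO8 at 6.61 ± 2.44 FPKM. FRO2 stood at 2.31 ± 1.49 FPKM and FRO4 at 1.59 ± 0.584 FPKM, while FRO5 and FRO1 were at 0.0716 ± 0.102 and 0.0259 ± 0.0243 FPKM. The libraries of FRO3, FRO8, FRO2 and FRO4 overlapped from each to the next in this order, as did those of FRO5 and FRO1, whereas FRO6, FRO7 and FRO3 were separate. On deficient iron FRO3 headed the order in wild type, at 200.04 ± 24.5 FPKM, above FRO6 at 109 ± 31.9 FPKM and FRO7 at 30.7 ± 7.67 FPKM. The rest of that order was FRO2 (15.2 ± 3.51 FPKM), FRO8 (9.43 ± 1.17 FPKM), FRO4 (1.53 ± 0.503 FPKM), FRO1 (0.776 ± 0.160 FPKM) and FRO5 (0.0955 ± 0.0944 FPKM), and no neighbours overlapped.

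In iron-sufficient clf, FRO6 again had the highest level, at 197 ± 48.3 FPKM, followed by FRO7 at 51.0 ± 11.4 FPKM. FRO8 (10.1 ± 1.10 FPKM) and FRO3 (8.44 ± 2.05 FPKM) overlapped, and FRO4 stood at 2.54 ± 0.467 FPKM. FRO2 (0.841 ± 0.718 FPKM) and FRO1 (0.298 ± 0.116 FPKM) overlapped, and FRO5 was last at 0.141 ± 0.0560 FPKM. On deficient iron in clf, FRO6 (132 ± 25.7 FPKM) and FRO3 (123 ± 26.3 FPKM) overlapped at the top, above FRO7 at 61.1 ± 16.4 FPKM. FRO8 (10.5 ± 2.05 FPKM) and FRO2 (9.09 ± 4.30 FPKM) overlapped as well. FRO4, FRO1 and FRO5 closed the order at 1.84 ± 0.475, 0.957 ± 0.272 and 0.105 ± 0.0816 FPKM.

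**Figure D1:**
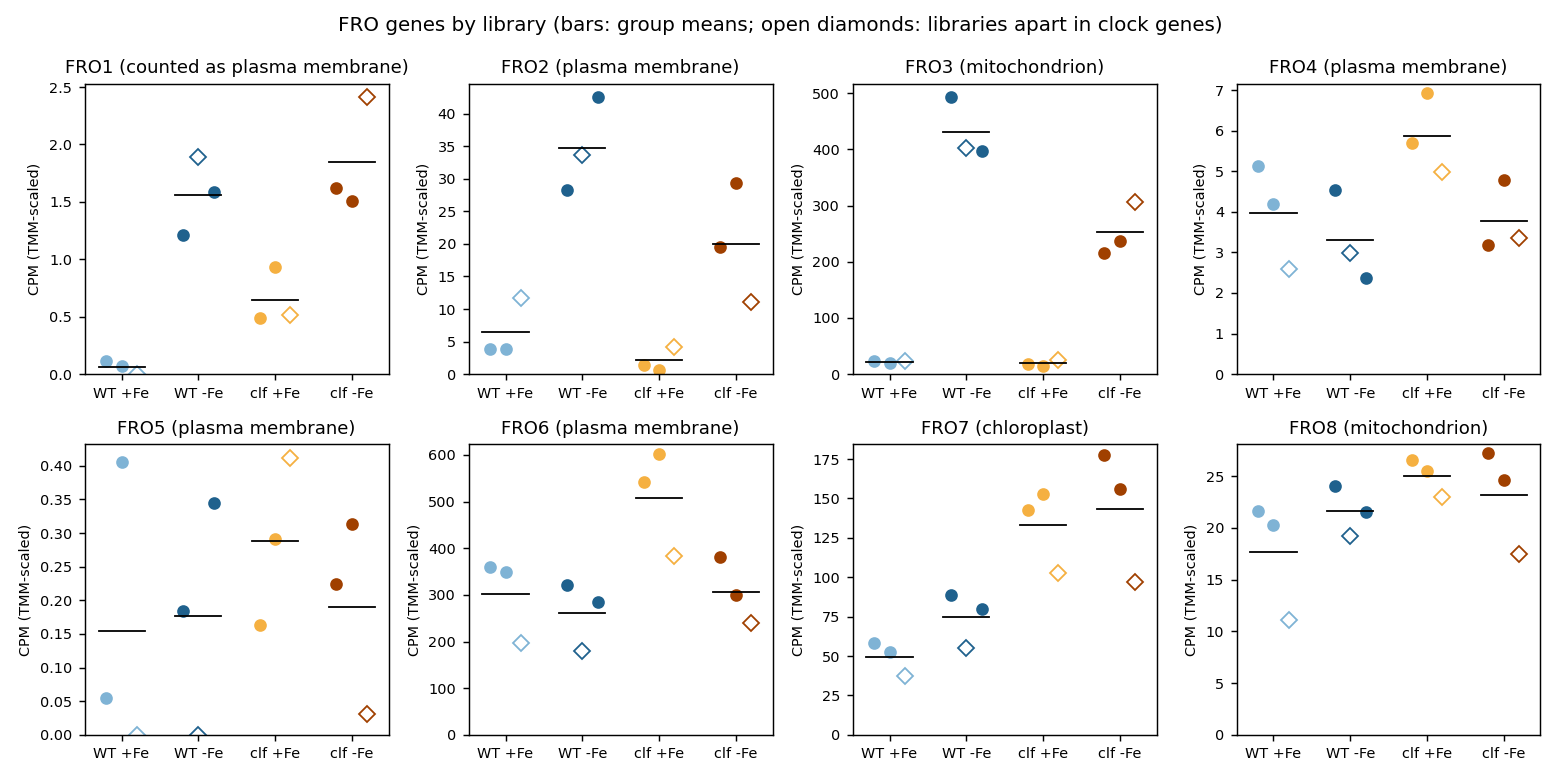
Level of each FRO member in each of the 12 libraries, in CPM on TMM-scaled library sizes, by group, each panel with its own axis, lines for the group means and open diamonds for the libraries that stood apart. FRO3 lay between 15.1 and 25.6 CPM on sufficient iron and between 216 and 493 CPM on deficient iron, whereas FRO6 lay between 180 and 602 CPM over all libraries.

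By place, the plasma membrane members held 76.8% ± 2.69 of the summed FPKM of the family in iron-sufficient wild type, the mitochondrial members 10.9% ± 1.97 and the chloroplast member FRO7 12.2% ± 0.755 (SD, n = 3). On deficient iron in wild type the mitochondrial share stood at 57.5% ± 5.17, the plasma membrane share at 34.2% ± 4.29 and the chloroplast share at 8.29% ± 0.889. In iron-sufficient clf the plasma membrane members held 74.0% ± 2.02, the mitochondrial members 7.18% ± 2.17 and FRO7 18.8% ± 0.277. In iron-deficient clf the plasma membrane share was 42.3% ± 5.88, the mitochondrial share 39.8% ± 9.72 and the chloroplast share 17.9% ± 3.94. The mitochondrial share did not overlap between the iron levels in either genotype, and the chloroplast share did not overlap between the genotypes at either iron level. The summed FPKM of the family was 144 ± 43.5 and 367 ± 60.8 in wild type on sufficient and deficient iron, and 271 ± 58.5 and 338 ± 19.7 in clf. These sums are not TMM-scaled. In log2 (FPKM + 0.1) the median difference with iron over all genes tested was itself 0.24 in wild type and 0.15 in clf. These shares are a description with no test, and they rest mostly on FRO6, FRO3 and FRO7. Averaged over the genotypes, the mitochondrial share differed by 39.6 percentage points between the iron levels, and by 36.6 without the 4 libraries that stood apart. The chloroplast share differed by 8.11 points between the genotypes, and by 9.24 without them.

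**Figure D2:**
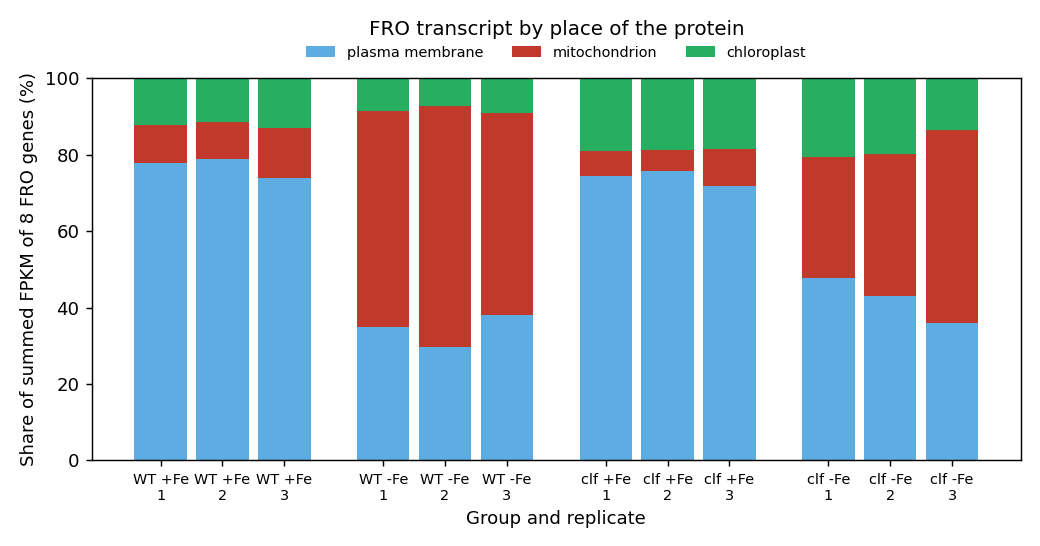
Share of the summed FPKM of the 8 FRO genes held by the plasma membrane, mitochondrial and chloroplast members, in percent, as 1 stacked bar for each of the 12 libraries, by group and replicate. The mean mitochondrial share was 10.9% and 7.18% on sufficient iron and 57.5% and 39.8% on deficient iron in wild type and clf.

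Deficient iron raised 3 of the 7 members that passed the filter on low counts in wild type (FRO1, FRO2 and FRO3) and 2 in clf (FRO2 and FRO3), and lowered none in either. Among all 19148 genes tested, 9.12% were called in wild type, 4.61% as higher and 4.52% as lower, and 1.52% in clf, 0.752% as higher and 0.768% as lower (edgeR quasi-likelihood test, Benjamini-Hochberg adjusted p under 0.05). The median log2 fold change of the 7 members was 0.59 in wild type and 0.11 in clf, beside 0.01 and −0.02 over all genes tested. FRO5 did not pass the filter, with 0 to 10 counts per library. Its 0 counts in replicate 3 of iron-sufficient wild type and in replicate 2 of iron-deficient wild type allow up to 0.210 and 0.123 CPM.

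Of the mitochondrial members, FRO3 had the smallest adjusted p of the family in both genotypes and FRO8 was not called. FRO3 stood at 22.5, 19.8 and 23.4 CPM in iron-sufficient wild type and at 493, 403 and 396 CPM on deficient iron. Values in clf were 18.3, 15.1 and 25.6 CPM with sufficient supply and 216, 237 and 307 CPM with deficient supply. Every library on deficient iron was above every library on sufficient iron in both genotypes. Fitted log2 fold changes were 4.30 (SE 0.22, edgeR adjusted p 2.7e-06) in wild type and 3.69 (SE 0.22, edgeR adjusted p 9.3e-06) in clf. FRO8 stood at 21.7, 20.2 and 11.1 CPM on sufficient iron and at 24.1, 19.2 and 21.5 CPM on deficient iron in wild type. The clf libraries gave 26.5, 25.5 and 22.9 CPM with sufficient supply and 27.3, 24.6 and 17.5 CPM with deficient supply. The iron levels overlapped in both genotypes, with log2 fold changes of 0.29 (SE 0.24, edgeR adjusted p 0.51) and −0.11 (SE 0.24, edgeR adjusted p 0.90). These became 0.12 (edgeR adjusted p 0.55) and −0.0047 (edgeR adjusted p 0.99) without the 4 libraries that stood apart.

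Within a library, the log2 ratio of FRO3 to FRO8 was higher on deficient iron by 3.95 in wild type and by 3.83 in clf, 3.89 on average, with the same direction in each genotype. An exact two-sided permutation of the iron labels within each genotype gave p 0.005, the smallest that its 400 arrangements allow, and an adjusted p of 0.01 over the 14 tests made on 7 pairs of members. All 7 pairs were chosen with earlier results of these data known, and the adjustment does not cover that choice.

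Of the members counted with the plasma membrane, FRO2 was called for iron in each genotype and FRO1 in wild type only. FRO4 and FRO6 were not called in either genotype. FRO2 stood at 3.81, 3.79 and 11.7 CPM in iron-sufficient wild type and at 28.2, 33.6 and 42.5 CPM on deficient iron. Values in clf were 1.48, 0.641 and 4.22 CPM with sufficient supply and 19.5, 29.3 and 11.1 CPM with deficient supply. The iron levels did not overlap in either genotype, and the highest values on sufficient iron were in libraries that stood apart. Fitted log2 fold changes were 2.44 (SE 0.63, edgeR adjusted p 0.036) in wild type and 3.23 (SE 0.66, edgeR adjusted p 0.041) in clf. Without the 4 libraries that stood apart, these were 3.22 (SE 0.29, edgeR adjusted p 5.6e-05) and 4.51 (SE 0.35, edgeR adjusted p 4.6e-05). In wild type the call was lost without replicate 1 or 2 of iron-sufficient wild type, any replicate of iron-deficient wild type, or replicate 1 of either clf group, with values of 2.17 to 2.57 and edgeR adjusted p of 0.050 to 0.12. In clf it was lost without any of 9 libraries, at 2.81 to 3.24 and edgeR adjusted p of 0.057 to 0.14. It held there only without replicate 3 of iron-sufficient wild type or of either clf group. FRO2 is chiefly a root gene, and the summed root markers ran from 8.88 to 16.6 CPM on sufficient and from 9.15 to 16.4 CPM on deficient iron in wild type. In clf they ran from 13.3 to 21.3 CPM on sufficient and from 4.24 to 12.8 CPM on deficient iron. PHT1;1, a phosphate transporter, had the highest mean of these markers in every group. It stood at 5.16 and 4.86 CPM in wild type and at 9.03 and 3.98 CPM in clf, on sufficient and deficient iron. By library, in the order of the FRO2 values, the summed root markers were 6.07, 12.8 and 4.24 CPM in iron-deficient clf, the same ranking as FRO2 there. Their ranking was the reverse of FRO2 in iron-sufficient wild type (11.9, 16.6 and 8.88 CPM) and in iron-sufficient clf (16.1, 21.3 and 13.3 CPM). It was neither in iron-deficient wild type, at 14.99, 9.15 and 16.4 CPM. The part of root tissue in the FRO2 values was not tested.

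FRO1 was scarce. Its counts in the 3 libraries of wild type were 2, 1 and 0 on sufficient iron and 33, 46 and 46 on deficient iron. The clf libraries had 9, 16 and 10 counts on sufficient and 36, 48 and 79 on deficient iron. The lowest library on deficient iron was above the highest on sufficient iron in each genotype, in counts and in CPM. Scaled to library size, the summed counts of 3 and 125 in wild type gave a ratio of 24.4 (exact 95% interval 8.16 to 120, counting error only), and those of 35 and 163 in clf a ratio of 2.94 (2.03 to 4.37). The fitted log2 change was 4.52 (SE 0.59, edgeR adjusted p 0.0013) in wild type and 1.51 (SE 0.43, edgeR adjusted p 0.11) in clf, where DESeq2 gave 1.53 (adjusted p 0.022). Leaving out the 4 libraries that stood apart gave 3.86 (edgeR adjusted p 0.0029) and 1.13 (edgeR adjusted p 0.17). The wild-type value depends on the prior count, since the reference group held only 3 counts.

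FRO6 stood at 360, 348 and 196 CPM in iron-sufficient wild type and at 321, 180 and 286 CPM on deficient iron. The clf libraries gave 542, 602 and 383 CPM with sufficient supply and 380, 299 and 240 CPM with deficient supply. The iron levels overlapped in wild type and did not overlap in clf. Fitted log2 fold changes were −0.20 (SE 0.29, edgeR adjusted p 0.73) in wild type and −0.73 (SE 0.29, edgeR adjusted p 0.26) in clf. The clf value was −0.75 (SE 0.13, edgeR adjusted p 0.0070) without the 4 libraries that stood apart. FRO4 stood at 5.14, 4.19 and 2.59 CPM in iron-sufficient wild type and at 4.53, 3.00 and 2.38 CPM on deficient iron. Values in clf were 5.68, 6.93 and 4.99 CPM with sufficient supply and 3.19, 4.77 and 3.35 CPM with deficient supply. Its log2 fold changes of −0.27 (SE 0.31, edgeR adjusted p 0.65) and −0.63 (SE 0.30, edgeR adjusted p 0.37) were not called, although the clf groups did not overlap. They were −0.44 (edgeR adjusted p 0.40) and −0.65 (edgeR adjusted p 0.24) without the 4 libraries that stood apart.

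The chloroplast member FRO7 stood at 58.6, 52.5 and 37.6 CPM in iron-sufficient wild type and at 88.9, 54.8 and 79.7 CPM on deficient iron. The clf libraries gave 143, 153 and 103 CPM with sufficient supply and 177, 156 and 96.7 CPM with deficient supply. The iron levels overlapped in both genotypes. Fitted log2 fold changes were 0.59 (SE 0.27, edgeR adjusted p 0.21) in wild type and 0.11 (SE 0.26, edgeR adjusted p 0.92) in clf. The wild-type value was 0.60 (SE 0.12, edgeR adjusted p 0.0057) without the 4 libraries that stood apart, among which were the lowest FRO7 values of both wild-type groups.

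**Figure D3:**
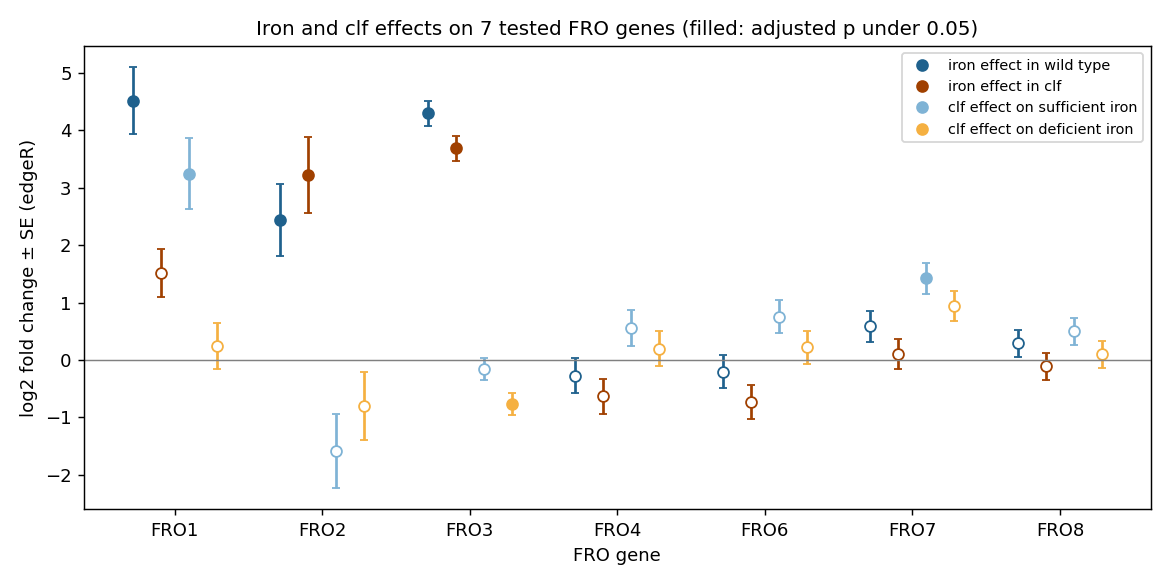
Fitted log2 fold changes of the 7 tested FRO members, for deficient against sufficient iron in each genotype and for the clf effect on each iron supply, with bars of 1 SE; filled points passed an adjusted p of 0.05. FRO3 reached 4.30 and 3.69 for iron, and FRO7 1.42 and 0.94 for clf.

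Between the genotypes, clf was higher than wild type for 2 of the 7 tested members on sufficient iron (FRO1 and FRO7) and lower for 1 on deficient iron (FRO3). Among all genes, 4.91% were called on sufficient iron, 3.59% as higher and 1.32% as lower, and 6.47% on deficient iron, 4.01% as higher and 2.46% as lower. The median log2 fold change of the members was 0.56 and 0.20, beside −0.01 over all genes at both iron levels. The log2 difference of FRO7, clf minus wild type, was 1.42 (SE 0.27, edgeR adjusted p 0.014) on sufficient iron and 0.94 (SE 0.27, edgeR adjusted p 0.064) on deficient iron, and at both iron levels every clf library was above every wild-type library. Without the 4 libraries that stood apart, the values were 1.41 (SE 0.12, edgeR adjusted p 9.0e-05) and 0.98 (SE 0.12, edgeR adjusted p 0.00036). On sufficient iron the FRO7 call was lost without replicate 2 of wild type (1.47, edgeR adjusted p 0.052) or without replicate 1 or 2 of clf (1.36 and 1.31, edgeR adjusted p 0.056 and 0.062), all on sufficient iron. On deficient iron it was gained without replicate 3 of iron-sufficient wild type (0.94, edgeR adjusted p 0.046) or without replicate 3 of iron-deficient clf (1.16, edgeR adjusted p 0.024).

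FRO1 was higher in iron-sufficient clf by a fitted log2 change of 3.25 (SE 0.62, edgeR adjusted p 0.014), from 3 counts in wild type and 35 in clf, a scaled ratio of 10.02 (exact 95% interval 3.16 to 50.9). On deficient iron the ratio was 1.21 (0.952 to 1.54) and the log2 change 0.24 (SE 0.40, edgeR adjusted p 0.79). The call was lost without replicate 2 of iron-sufficient wild type or clf (3.30 and 2.90, edgeR adjusted p 0.059 and 0.057), and without the 4 libraries that stood apart the value was 2.89 (edgeR adjusted p 0.030). For FRO6 the difference on sufficient iron was 0.75 (SE 0.29, edgeR adjusted p 0.19), with no overlap of the libraries. Without the 4 libraries that stood apart this was 0.69 (SE 0.13, edgeR adjusted p 0.0078). On deficient iron the FRO6 libraries overlapped, at 0.22 (SE 0.29, edgeR adjusted p 0.72). For FRO8 the difference was 0.50 (SE 0.24, edgeR adjusted p 0.29) on sufficient iron, with no overlap, and 0.10 (SE 0.24, edgeR adjusted p 0.86) on deficient iron. The values without the 4 libraries were 0.31 (edgeR adjusted p 0.15) and 0.18 (edgeR adjusted p 0.34), whereas a term for those libraries in the model gave 0.54 (SE 0.14, edgeR adjusted p 0.029) on sufficient iron.

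FRO3 was lower in clf than in iron-deficient wild type by −0.77 on the log2 scale (SE 0.19, edgeR adjusted p 0.043), and every clf library was below every wild-type library. On sufficient iron its difference was −0.15 (SE 0.20, edgeR adjusted p 0.73) and the libraries overlapped, and without the 4 libraries that stood apart it was −0.34 (edgeR adjusted p 0.19). The call on deficient iron was lost without replicate 1 or 2 of iron-sufficient wild type, any replicate of iron-deficient wild type, replicate 1 of iron-sufficient clf, or replicate 1 or 2 of iron-deficient clf. Those values were −0.82 to −0.66, with edgeR adjusted p of 0.060 to 0.17. Without the 4 libraries that stood apart the value was −0.97 (SE 0.14, edgeR adjusted p 0.0010). The FRO2 difference was −1.59 (SE 0.65, edgeR adjusted p 0.22) on sufficient and −0.80 (SE 0.59, edgeR adjusted p 0.50) on deficient iron, and its libraries overlapped. On sufficient iron this was −1.83 (SE 0.41, edgeR adjusted p 0.017) without the 4 libraries, and on deficient iron −0.53 (edgeR adjusted p 0.17). FRO4 differed by 0.56 (SE 0.31, edgeR adjusted p 0.37) and 0.20 (SE 0.30, edgeR adjusted p 0.78), with overlap.

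The response to iron was not called as different between the genotypes for any member. For this interaction 0.00522% of all genes were called. Of the 7 members, 0 were called by edgeR, by DESeq2 and by limma on FPKM values, and 2 had an unadjusted edgeR p under 0.05, as had 7.4% of all genes. These were FRO1, with a log2 interaction (clf response less wild-type response) of −3.00 (SE 0.75, edgeR adjusted p 0.42), and FRO3, at −0.61 (SE 0.28, edgeR adjusted p 0.68). FRO2 stood at 0.78 (SE 0.87, edgeR adjusted p 0.91). With the 4 libraries that stood apart left out, the values were −2.73, −0.63 and 1.29 for FRO1, FRO3 and FRO2 (edgeR adjusted p 0.20, 0.21 and 0.27).

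The ratio of FRO6 to FRO7, near-identical neighbours whose products lie in different membranes, was lower on deficient iron and lower in clf. The log2 ratio of their CPM was 2.62, 2.73 and 2.38 in iron-sufficient wild type and 1.85, 1.71 and 1.84 on deficient iron. In clf it was 1.92, 1.98 and 1.89 on sufficient iron and 1.10, 0.94 and 1.31 on deficient iron. The groups that differ in iron alone or in genotype alone did not overlap, and the library that stood apart had the lowest ratio of its group in 3 groups and the highest in iron-deficient clf. The difference with iron was −0.77 in wild type and −0.81 in clf (mean −0.79, exact two-sided permutation p 0.005, adjusted 0.01). The difference with genotype was −0.65 on sufficient and −0.68 on deficient iron (mean −0.67, exact permutation p 0.005, adjusted 0.01). Both held with each library left out in turn, and without the 4 libraries that stood apart they were −0.88 and −0.77. This pair was chosen with earlier results known, a choice that these p-values do not cover. In FPKM, FRO7 stood at 16.7% ± 2.07 of FRO6 in iron-sufficient wild type and at 28.4% ± 1.53 on deficient iron. It stood at 26.0% ± 0.740 and 45.9% ± 5.81 in clf (SD, n = 3). Shared stretches of coding sequence make the split of reads between these genes uncertain, and its part in the ratio was not tested.

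**Figure D4:**
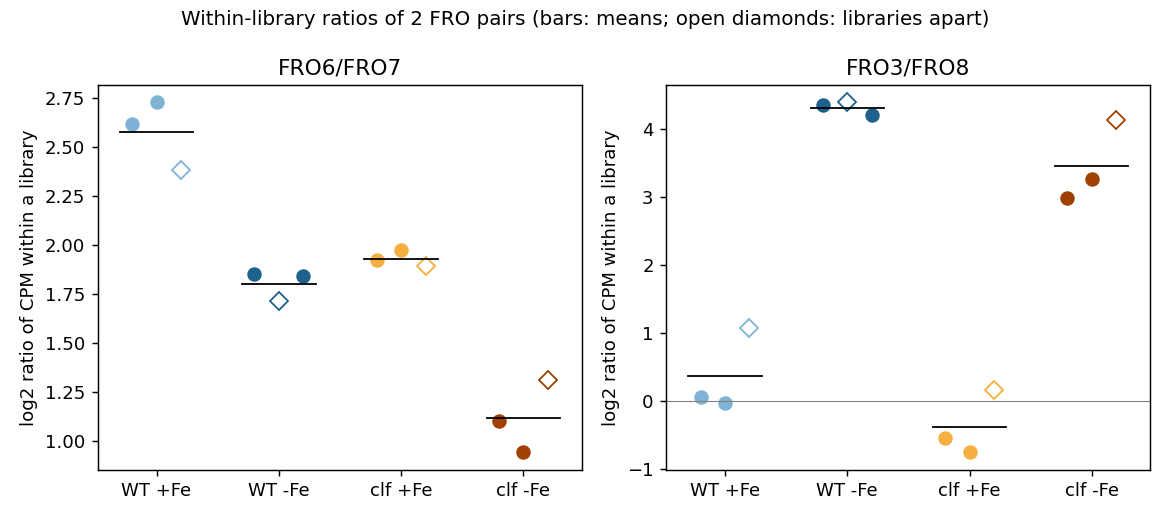
Log2 ratios of CPM (prior count 2) of FRO6 to FRO7 (left) and FRO3 to FRO8 (right) within each library, by group, with points for the 3 libraries, open diamonds for the libraries that stood apart and lines for the group means. The FRO6 to FRO7 ratio was 2.38 to 2.73 in iron-sufficient wild type and 0.94 to 1.31 in iron-deficient clf.

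Across the places, the log2 ratio of mitochondrial FRO3 to plasma membrane FRO6 was higher on deficient iron by 4.45. That of FRO3 to chloroplast FRO7 was higher by 3.66 (both ratios exact permutation p 0.005, adjusted 0.01). FRO3 by itself rose by 4.30 in wild type and 3.69 in clf, and its ratio to FRO8, also mitochondrial, rose by 3.89. The iron differences of the FRO3 ratios thus follow FRO3 and do not compare the places. The ratio of FRO2 to FRO6, a root-type and a leaf-type plasma membrane member, was higher by 3.49 (exact permutation p 0.005, adjusted 0.01). The ratio of FRO1 to its neighbour FRO2 moved by 0.92 in wild type and by −2.04 in clf (mean −0.56, exact permutation p 0.525, adjusted 0.61), and that of FRO4 to FRO5 by −0.29 (exact permutation p 0.6, adjusted 0.65). In clf against wild type, FRO3 to FRO7 was lower by −1.66 (exact permutation p 0.005, adjusted 0.01), which held with each library left out. FRO1 to FRO2 was higher in clf by 2.58 (exact permutation p 0.01, adjusted 0.018), by 4.06 on sufficient and 1.11 on deficient iron, and its adjusted p was 0.080 with the replicate number as a block. FRO3 to FRO6 was −0.99, FRO3 to FRO8 −0.80 and FRO2 to FRO6 −1.82 (exact permutation p 0.02, 0.025 and 0.03, adjusted 0.031, 0.035 and 0.038), and these were each lost with some library left out. FRO4 to FRO5 differed by −0.17 (exact permutation p 0.765). The scarce members depend on the prior count. At 0.5 in place of 2, FRO1 to FRO2 was −0.019 with iron and 3.11 with genotype, and FRO4 to FRO5 was −0.67 with genotype. With each library left out, FRO1 to FRO2 ranged from −0.99 to −0.12 with iron. Without the 4 libraries that stood apart, the FRO1 to FRO2 difference with iron was −1.74, and that of FRO4 to FRO5 was −0.86 with iron and 0.20 with genotype. Each of the other differences kept its sign and lay within 1.5 times its value. The pairs share members, so the tests are not independent of one another. The p-values do not cover the choice of pairs, which was made with earlier results known.

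The 4 libraries that stood apart held the lowest value of their group for FRO6, FRO7 and FRO8 in 4 of 4 groups. FRO6 stood there at 55.4% to 70.6% of the mean of the other 2 libraries of its group, FRO7 at 58.1% to 69.6% and FRO8 at 52.8% to 88.2%. FRO3 was the highest of its group in 3 of 4, at 90.6% to 153%, and FRO2 ranged from 45.5% to 398%. The clock genes moved in the same libraries, with the TOC1 and LHY values given above, and their part in the FRO levels was not tested. The share of all genes tested that were lowest in these libraries was not counted. These positions are therefore not shown to be particular to the FRO genes.

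**Figure D5:**
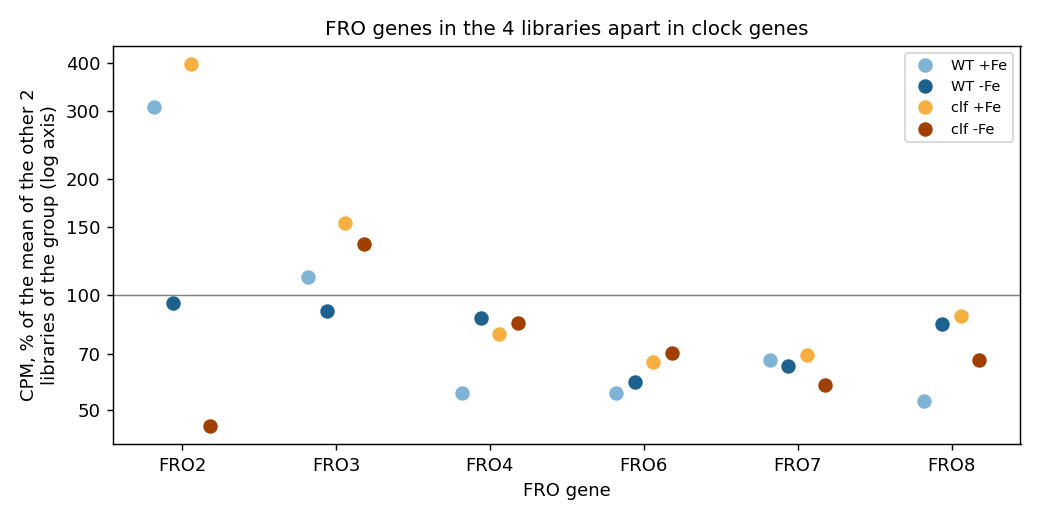
Levels of FRO2, FRO3, FRO4, FRO6, FRO7 and FRO8 in the library of each group that stood apart, as a percentage of the mean CPM of the other 2 libraries of that group, on a log axis with a line at 100%; the scarce FRO1 and FRO5 are not drawn. FRO6 lay between 55.4% and 70.6% and FRO7 between 58.1% and 69.6%, below the line in all 4 groups.

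Over the 12 libraries, the genes most like FRO3 in log2 CPM were BTS, a ubiquitin ligase that restrains the iron response (Pearson r 0.999), AT4G08867 (0.995), AT1G47405 (0.994), AT2G42750 (0.993) and ZIF1, a vacuolar transporter (0.991). For FRO2 they were CYP82C4, a cytochrome P450 of iron-deficient roots (0.969), the iron transporter IRT1 (0.957), TIM23-2 (0.948), AT3G12900 (0.947) and NET3A (0.934). For FRO7 they were SQP1 (0.987), KNAT3 (0.987), AT1G49740 (0.985), ABCC4 (0.983) and SULTR3;1 (0.983). For FRO6 they were AT1G73970 (0.965), VTE1 (0.963), AT3G05165 (0.958), AT2G43150 (0.957) and PAP26 (0.956). For FRO8 they were AT4G16470 (0.978), NIK3 (0.963), EOL1 (0.952), AT1G49470 (0.951) and AT2G01680 (0.9505). CAT4 (0.967), LAC11 (0.916), AT1G44820 (0.902), KTI1 (0.897) and AT5G45060 (0.894) stood nearest to FRO4, and CYP83A1 (0.943), PIRL9 (0.941), IPMI1 (0.933), AT3G20240 (0.933) and APK (0.932) nearest to FRO1. Within the family the highest values were FRO2 with FRO3 (0.876), FRO7 with FRO8 (0.796) and FRO4 with FRO6 (0.793), above FRO6 with FRO7 (0.649). Many other genes were closer to each of these members. Among all genes tested, FRO3 had rank 61 for FRO2, and FRO2 rank 179 for FRO3. FRO8 had rank 965 for FRO7, and FRO7 rank 607 for FRO8. FRO6 had rank 82 for FRO4, and FRO4 rank 340 for FRO6. FRO7 had rank 1318 for FRO6, and FRO6 rank 2274 for FRO7. These are descriptions over libraries that share groups, and they carry no test.

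The genes that work beside the reductases were read from lists. Of 11 tested iron regulators, 6 were higher and 1 lower on deficient iron in wild type, and 6 were higher in clf, with median log2 fold changes of 2.79 and 2.85. Beside these and the list counts that follow, 4.61% of all genes tested were higher and 4.52% lower in wild type, and 0.752% and 0.768% in clf. They include bHLH100, a transcription factor of the iron response (12.63 in wild type and 9.52 in clf, edgeR adjusted p 8.3e-07 and 3.0e-06), and BTS (3.55 and 3.02, edgeR adjusted p 1.4e-06 and 5.9e-06). Of 8 tested genes for uptake at the root surface, 7 were higher in wild type and 1 in clf, with medians of 2.25 and 1.89. That 1 was CYP82C4, at 3.81 in wild type and 3.96 in clf (edgeR adjusted p 0.0099 and 0.036). Among 7 mitochondrial iron genes only the ferritin FER4, an iron store, was called, as lower, at −3.41 in wild type and −2.07 in clf (edgeR adjusted p 0.00012 and 0.0069). Among 8 chloroplast iron genes only the ferritin FER1 was called, as lower, at −4.17 and −2.18 (edgeR adjusted p 0.00045 and 0.033). The medians of these lists were 0.02 and 0.11 for mitochondrial and −0.15 and −0.02 for chloroplast genes. Of 9 copper genes, the copper transporter COPT2 was higher in wild type (1.64, edgeR adjusted p 0.0093). The superoxide dismutases FSD1, which uses iron, and CSD2, which uses copper, were lower in both genotypes. FSD1 fell by 2.71 in wild type and by 1.25 in clf (log2, edgeR adjusted p 3.6e-05 and 0.014), and CSD1 was also lower in clf (−2.56, edgeR adjusted p 0.0063). Between the genotypes 3.59% of all genes were higher on sufficient and 4.01% on deficient iron. For clf against wild type on deficient iron, FER4 (1.15), FER1 (1.66) and FSD1 (1.45) were higher (edgeR adjusted p 0.046, 0.043 and 0.0026), and on sufficient iron NAS1, a nicotianamine synthase, was higher (1.10, edgeR adjusted p 0.041). Of the 8 leaf markers, 4 were lower on deficient iron in wild type and 2 in clf, against 4.52% and 0.768% of all genes. Of the 10 tested root markers, 0 were called for iron in either genotype. Their median log2 fold change was 0.26 in wild type and −1.04 in clf. For clf against wild type on deficient iron their median was −1.18. Only COBL9 was called there, as lower (−2.88, edgeR adjusted p 0.043), against 2.46% of all genes. In bulk tissue, fewer cells of a type and less RNA per cell cannot be told apart.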

How the data were processed

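Counts and FPKM values per gene were deposited for 12 libraries in 4 groups of 3, assigned from the titles. Per the labels' protocols, the libraries were stranded. Reads were aligned with TopHat2 to TAIR10, per the submitters' processing notes. The aligner version, counting tool and strand setting were not stated. Counts were deposited as whole numbers, not normalized. The FPKM values were made by the authors: for each of the 8 members, count over FPKM gave the same length in every library, from 1974 to 2553 bases. 1 text column was left unused.

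The members and lists were chosen with earlier results of these data known, as were the 4 libraries that stood apart. All 8 FRO genes are named, with up to 4 called members per list and comparison and the 5 genes most correlated with each tested member. Genes were filtered with filterByExpr (minimum count 10, minimum total 15; 19148 of 32678 tested), scaled by TMM and fitted in edgeR 4.0.16 (glmQLFit, glmQLFTest) under R 4.3.3 on all 12 libraries, with 8 residual degrees of freedom. SE is the log2 fold change over the square root of F. Reads had no molecular identifiers, so intervals and floors of 3 counts cover counting error only. Pair ratios used log2 CPM with a prior count of 2 and an exact permutation test within strata. The pairs, too, were chosen with earlier results known, and their p-values do not cover that choice. The planned test of shares by place is not given: a share sums over members chosen with results known, so it is described without a p. Alternatives were RLE factors, no filter, a replicate block, a term for the 4 libraries or their omission, each library left out, groups compared alone, DESeq2 1.42.0 and limma 3.58.1 on log2 (FPKM + 0.1) or (FPKM + 1). Sequences are from RefSeq TAIR10.1, and protein sequences were not used here.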

Additional observations from a re-analysis of the deposited data

How the results depend on the processing

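The number of members called for iron in wild type was 3, with 9.12% of all genes called. It was 4 with a term for the 4 libraries apart (21.5%) and 4 without them (16.9%), where FRO7 joined, 2 with groups compared alone (3.64%) and 2 to 3 with each library left out. For the interaction it was 0 under every alternative run. For iron in clf it was 2 (1.52%), and became 4 with the term (9.09%), 3 without those libraries (8.69%), where FRO6 joined, 3 by DESeq2 (4.93%) and by limma at either pseudocount (2.63% and 3.06%), 1 with groups compared alone (0.608%) and 1 to 2 with each library left out. For clf on sufficient iron it was 2 (4.91%), and became 4 with the term (14.4%), 4 without those libraries (10.2%), 1 with groups compared alone (3.03%), where FRO1 did not pass the filter, 1 by limma on log2 (FPKM + 1) (6.38%) and 0 to 2 with each library left out. For clf on deficient iron it was 1 (6.47%), and became 2 with the term (16.4%), without those libraries (16.9%) and by DESeq2 (10.6%), 0 with groups compared alone (3.28%) and by limma on log2 (FPKM + 0.1) (5.88%), and 0 to 2 with each library left out. The FPKM values also moved the median of all genes to 0.24 in wild type for iron (pseudocount 0.1), 0.15 in clf for iron and 0.12 for clf on sufficient iron. The causes were not tested.

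Replicate numbers are shared by the groups, and 12 of 18 same-numbered pairs of libraries correlated over 0.1 in their deviations from the group means. Same-numbered pairs ranged from −0.628 to 0.641, and pairs with different numbers ranged as widely, from −0.648 to 0.720. All 3 pairs did so between the genotypes on sufficient iron (0.289 to 0.641) and between the iron levels in clf (0.176 to 0.509), and there the replicate block changed no member's call. Only 1 of 3 did so between the iron levels in wild type (−0.628 to 0.326) and between the genotypes on deficient iron (−0.377 to 0.186). In no comparison do these values show that libraries with the same number belong together. The library apart is replicate 3 in every group but iron-deficient wild type. With the replicate block, 2 members were called for clf on deficient iron (FRO7 at 0.90, edgeR adjusted p 0.044, joined FRO3), and the FRO1 to FRO2 ratio between genotypes kept its 2.58 at an adjusted p of 0.080.

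With each library left out, the genotype ratios ranged from −2.25 to −1.41 for FRO2 to FRO6 (7 of 12 no longer past the threshold), −1.19 to −0.82 for FRO3 to FRO6 (4), −0.97 to −0.62 for FRO3 to FRO8 (5) and −0.52 to 0.13 for FRO4 to FRO5. The iron ratio of FRO4 to FRO5 ranged from −0.61 to 0.059. Without the 4 libraries the permutation test of ratios cannot pass, so it gave values only. Directions that turned belonged to uncalled members. With each library left out, FRO6 ranged from −0.43 to 0.0090 for iron in wild type, FRO7 from −0.073 to 0.33 and FRO8 from −0.24 to 0.055 for iron in clf, FRO3 from −0.39 to 0.0025 for clf on sufficient iron, and FRO8 from −0.035 to 0.26 and FRO4 from −0.0096 to 0.49 for clf on deficient iron. By limma on FPKM values the signs that turned were FRO6 for iron in wild type (0.047 at both pseudocounts) and FRO8 for iron in clf (0.031 and 0.030). Depth limits FRO1 and FRO5, which had at most 79 and 10 counts in a library.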

Other observations

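Among 10 NADPH oxidase genes, which like the FRO proteins pass electrons from NADPH across a membrane, 6 passed the filter. Of these only AT4G25090 was called, as higher for iron in wild type and as lower for clf on deficient iron. Among all genes tested, 4.61% and 2.46% were called in these directions. It stood at 0.664 ± 0.371 CPM in iron-sufficient and at 11.3 ± 1.41 CPM in iron-deficient wild type (SD, n = 3), a log2 fold change of 4.10 (SE 0.64, edgeR adjusted p 0.0034). In clf it stood at 0.467 ± 0.281 and 1.51 ± 1.16 CPM. It was not called for iron in clf or for the interaction, where 1.52% and 0.00522% of all genes were called. On deficient iron it was lower in clf than in wild type by −2.88 (SE 0.57, edgeR adjusted p 0.015).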
